A study of Mus musculus with 9 samples.

Results

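Genes that load peptides onto MHC class I molecules were followed in cultured mouse adipose-derived stem cells (ASCs) from 3 depots by bulk mRNA sequencing. They are 10 of the 54532 genes in the count table, chosen by symbol: the class I heavy chains H2-K1 and H2-D1, their light chain B2m, the peptide transporter genes Tap1 and Tap2, the loading factor gene Tapbp, the immunoproteasome genes Psmb8, Psmb9 and Psmb10, and the class I transactivator gene Nlrc5. Each symbol matched 1 row, and all 10 had enough reads for testing in the table, where 16526 genes passed the low-count filter. Sub-ASCs came from subcutaneous, Ab-ASCs from abdominal and PVASCs from perivascular adipose tissue of C57BL/6 mice, with 3 libraries in each group and 9 in all. The labels and methods name no transgene or treatment for these libraries, and all cells were grown in the same stem cell medium with serum, leukemia inhibitory factor and FGF. The cells were harvested over a range of passages, and the passage of each library is not given. The age and sex of the mice are not given in the labels, nor is it stated whether the 3 libraries of a group came from separate animals or cultures, so that p-values measure only the spread between these libraries, which may be technical.

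MHC class I molecules display short peptides from inside the cell to CD8+ T cells and are also read by NK cells. Proteasomes cut proteins into peptides, the TAP transporter carries them into the endoplasmic reticulum, and tapasin holds an empty heavy chain with its light chain, β2-microglobulin, close to the transporter until a peptide binds. Interferon-γ is known to raise most genes of this route through factors such as IRF1 and NLRC5, and it exchanges 3 catalytic subunits of the proteasome for the immunosubunits encoded by Psmb8, Psmb9 and Psmb10. In mesenchymal stem cells, class I molecules are usually present at low to moderate levels and can be induced.

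Of the 10 genes, 7 lie in the MHC on chromosome 17 of GRCm38 between 33915899 and 35267499, and Psmb9, Tap1, Psmb8 and Tap2 follow each other between 34181988 and 34216321. B2m lies on chromosome 2 between 122147686 and 122153083, whereas Nlrc5 (94434356 to 94527272) and Psmb10 (105935735 to 105938444) lie on chromosome 8. Promoter sequences from RefSeq (GRCm38.p6) were found for 8 of the 10 genes, but not for Tap2 and Nlrc5. The 250 bases before the start site are printed for the heavy and light chain genes, which are bound into 1 complex and whose levels are compared throughout, followed by the stretch between the RefSeq start sites of Psmb9 and Tap1, which are read in opposite directions from it. By the gene positions listed with the counts, Psmb9 starts at 34187764 and Tap1 at 34187553, so that the genes overlap there. Capitals mark matches on either strand to the X2 core TGACG, the Y box ATTGG, the κB motif GGGGATTCC and the interferon-type motifs GAANNGAAA and GAAANNGAA. The interferon-type match reads TTTCACTTC in both heavy chain genes and GAAACTGAA in B2m, and none of the matches shown overlaps another.
H2-K1, chr17:34000334-34000583, minus strand: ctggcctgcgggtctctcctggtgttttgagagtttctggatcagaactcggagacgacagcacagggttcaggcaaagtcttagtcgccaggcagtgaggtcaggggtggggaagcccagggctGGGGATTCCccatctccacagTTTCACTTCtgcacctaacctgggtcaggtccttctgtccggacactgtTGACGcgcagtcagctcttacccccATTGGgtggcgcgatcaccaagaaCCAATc
H2-D1, chr17:35262844-35263093, plus strand: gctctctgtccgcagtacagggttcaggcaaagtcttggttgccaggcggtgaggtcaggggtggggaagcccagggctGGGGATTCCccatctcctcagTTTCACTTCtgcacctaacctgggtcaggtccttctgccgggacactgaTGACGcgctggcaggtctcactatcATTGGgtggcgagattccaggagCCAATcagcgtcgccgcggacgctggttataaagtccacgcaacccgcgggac
B2m, chr2:122147437-122147686, plus strand: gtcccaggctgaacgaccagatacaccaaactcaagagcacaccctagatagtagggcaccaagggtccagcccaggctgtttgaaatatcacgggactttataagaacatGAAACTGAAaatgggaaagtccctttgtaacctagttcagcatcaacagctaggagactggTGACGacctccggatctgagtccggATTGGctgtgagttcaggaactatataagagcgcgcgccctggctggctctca
Psmb9 and Tap1, chr17:34187331-34187555, plus strand: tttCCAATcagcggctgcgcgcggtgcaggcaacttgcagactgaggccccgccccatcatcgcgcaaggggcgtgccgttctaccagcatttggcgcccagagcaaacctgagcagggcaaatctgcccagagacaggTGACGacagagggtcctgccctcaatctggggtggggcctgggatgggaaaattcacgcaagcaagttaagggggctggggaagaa

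The X2 core and the Y box are bound by parts of the enhanceosome on which NLRC5 acts. In H2-K1, H2-D1 and B2m, TGACG was followed by ATTGG with exactly 20 bases between them, starting at positions -55 and -30, -101 and -76, and -78 and -53 from the start site. For H2-K1 a second start site is listed at 34000347, from which the pair starts at -41 and -16 and whose window holds only the first of the Y boxes shown. Of 32851 mouse promoters of this length, 30 (0.0913%), belonging to 26 genes, held this pair. These include H2-K1, H2-D1 and B2m, and the non-classical heavy chain gene H2-M3 was also among them. The spacing of 20 bases was itself taken from B2m, so that this share is not an independent measure of how rare the pair is. The H2-K1 and H2-D1 promoters were identical at 87.2% of 203 aligned bases, and both held the κB motif, which was found in 70 (0.213%) of all promoters. GAANNGAAA was found in 6.31% of all promoters and in 2 of the 8 here, H2-K1 and H2-D1. GAAANNGAA was found in 7.13% of all promoters and in 1 of the 8 here, B2m. TGACG alone was found in 17.8% of promoters and in 5 of the 8, and ATTGG alone in 33.8% and in 6 of the 8. TTCNNNGAA, the GAS motif of interferon-γ responses, was found in 7.02% of promoters and here only in that of Psmb8. The motifs were chosen with these sequences in view, and a match describes letters, not a bound site.

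The libraries held 20524173 to 29881036 reads on genes, with 23781019 to 26872579 in Sub-ASCs, 20524173 to 23832828 in Ab-ASCs and 27136829 to 29881036 in PVASCs. Levels are given as CPM, which are counts scaled to a common library size after TMM normalization. The 8 ASC markers checked, Ly6a (Sca1), Thy1 (CD90), Eng (CD105), Pdgfra, Pdgfrb, Cd44, Nt5e and Itgb1, had reads in each group and summed to 6924 to 6951 CPM in Sub-ASCs, 3686 to 3808 CPM in Ab-ASCs and 4273 to 4414 CPM in PVASCs. The markers differed in direction. Ly6a was at 2049 ± 115 CPM in Sub-ASCs but 21.8 ± 3.42 CPM in Ab-ASCs and 111 ± 4.45 CPM in PVASCs (SD, n = 3), and Pdgfra, Pdgfrb and Nt5e were also lower in both groups. Thy1 was at 332 ± 11.4 CPM in Sub-ASCs, 231 ± 24.2 CPM in Ab-ASCs and 883 ± 19.1 CPM in PVASCs, and Eng, Cd44 and Itgb1 were higher in both groups, with Itgb1 at 886 ± 35.7, 1834 ± 120.0 and 1839 ± 24.1 CPM. Among other cell types, 6 endothelial markers summed to 176 to 191 CPM in Sub-ASCs, 63.7 to 66.2 CPM in Ab-ASCs and 764 to 768 CPM in PVASCs. Of these, Tek was lower in PVASCs than in Sub-ASCs, while the other 5 rose. Tek was at 46.0 ± 3.54 CPM in Sub-ASCs, 10.13 ± 0.719 CPM in Ab-ASCs and 14.8 ± 0.493 CPM in PVASCs. These marker directions against Sub-ASCs passed the edgeR quasi-likelihood test (Benjamini-Hochberg adjusted p under 0.05). Over all genes, 35.7% were called lower and 34.7% higher in PVASCs, and 38.3% and 37.0% in Ab-ASCs. With 4 of the 8 ASC markers called lower and 4 higher in PVASCs, that list had no common direction.

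All 10 class I genes were lower in PVASCs than in Sub-ASCs, with 35.7% of all genes tested called lower, and all 10 were lower in Ab-ASCs than in Sub-ASCs, with 38.3% of all genes called lower (edgeR quasi-likelihood test, Benjamini-Hochberg adjusted p under 0.05). Their median difference on the log2 scale was -4.91 (-7.37 to -3.24) in PVASCs and -3.78 (-6.56 to -2.89) in Ab-ASCs, beside medians of -0.01 and -0.03 over all genes. The genes remained at 0.604% to 10.5% of their Sub-ASC level in PVASCs and at 1.05% to 13.5% in Ab-ASCs. Libraries of the groups did not overlap for any of the 10 genes in either comparison, as for 39.0% of all genes lower in PVASCs and 39.1% lower in Ab-ASCs. The 2 comparisons share the Sub-ASC libraries. In these bulk samples, fewer cells of a type and less RNA per cell cannot be told apart. Together the 10 genes took 1.04% ± 0.0131 of all reads in Sub-ASCs, 0.0691% ± 0.00333 in Ab-ASCs and 0.0647% ± 0.00183 in PVASCs (SD, n = 3).

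**Figure D1:**
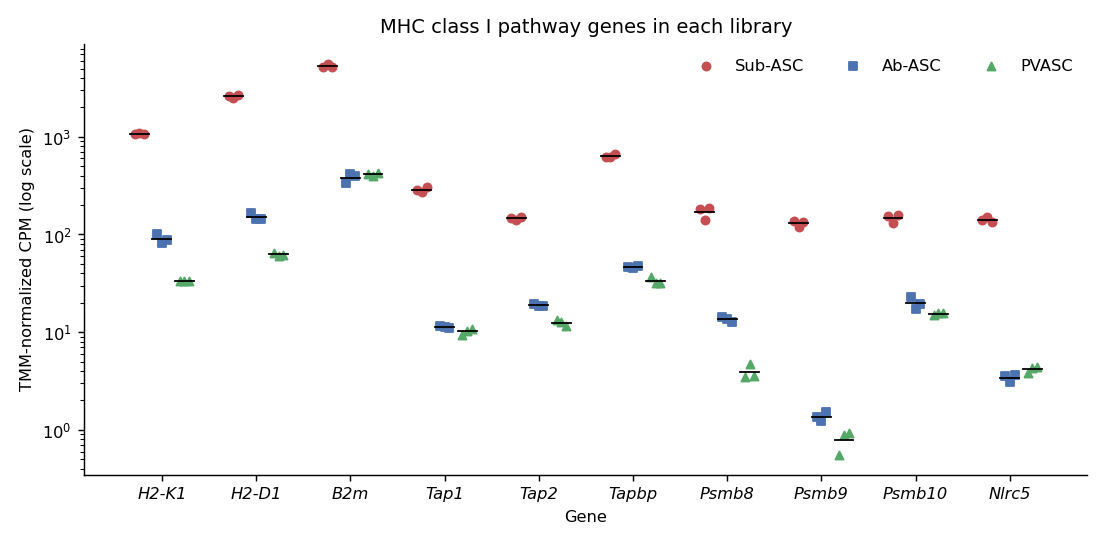
TMM-normalized CPM of the 10 class I genes (log scale) in each of the 9 libraries, with Sub-ASCs as circles, Ab-ASCs as squares, PVASCs as triangles and a line at each group mean. All Sub-ASC points lie above all other points of the same gene, whereas PVASC and Ab-ASC points meet for B2m.

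The classical heavy chains H2-K1 and H2-D1 bind the peptide and face the T cell receptor. H2-K1 was at 1061, 1087 and 1068 CPM in Sub-ASCs, at 101, 82.7 and 87.5 CPM in Ab-ASCs and at 33.7, 33.5 and 33.7 CPM in PVASCs. The groups were apart from each other in the order Sub-ASCs, Ab-ASCs, PVASCs, and PVASC libraries differed little among themselves. The log2 fold change of H2-K1 against Sub-ASCs was -4.99 (SE 0.08, adjusted p = 5.12e-14) in PVASCs and -3.57 (SE 0.07, adjusted p = 3.61e-13) in Ab-ASCs.

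H2-D1 was at 2632, 2516 and 2657 CPM in Sub-ASCs, at 165, 145 and 145 CPM in Ab-ASCs and at 65.3, 60.9 and 62.1 CPM in PVASCs. It kept the same order of groups without overlap. H2-D1 had a log2 fold change against Sub-ASCs of -5.37 (SE 0.07, adjusted p = 1.91e-14) in PVASCs and -4.10 (SE 0.06, adjusted p = 6.1e-14) in Ab-ASCs. Both genes were also lower in PVASCs than in Ab-ASCs, with log2 fold changes of -1.43 (SE 0.07, adjusted p = 6.28e-09) for H2-K1 and -1.27 (SE 0.06, adjusted p = 4.53e-09) for H2-D1.

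Heavy chain genes resemble each other, and reads from one can be counted for another or lost. Of the 50-base stretches in their GENCODE M21 transcripts, 9.63% for H2-K1 and 12.8% for H2-D1 were shared with another gene, mainly of the H2-Q group. The reads of the 20 heavy chain genes in the table were therefore also summed. The sum was 5660 ± 180 CPM in Sub-ASCs, 361 ± 31.8 CPM in Ab-ASCs and 162 ± 0.909 CPM in PVASCs (SD, n = 3), of which H2-K1 and H2-D1 held 64.9%, 67.1% and 59.6%. The log2 fold change of the sum was -5.13 (SE 0.07, adjusted p = 2.62e-14) for PVASCs and -3.97 (SE 0.07, adjusted p = 9.08e-14) for Ab-ASCs against Sub-ASCs, and -1.16 (SE 0.06, adjusted p = 1.2e-08) for PVASCs against Ab-ASCs.

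B2m encodes β2-microglobulin, without which most class I heavy chains do not reach the cell surface. It was at 5225, 5621 and 5158 CPM in Sub-ASCs, at 335, 418 and 394 CPM in Ab-ASCs and at 415, 401 and 430 CPM in PVASCs. The Sub-ASC libraries stood above the rest, while Ab-ASC and PVASC libraries overlapped. The log2 fold change of B2m against Sub-ASCs was -3.68 (SE 0.08, adjusted p = 7.32e-13) in PVASCs and -3.80 (SE 0.08, adjusted p = 5.63e-13) in Ab-ASCs. Between PVASCs and Ab-ASCs it was 0.12 (SE 0.07, adjusted p = 0.176), but 0.18 with an adjusted p of 0.033 without Ab-ASC replicate 2. None of the 50-base stretches of B2m was shared with another gene.

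Since the heavy chains differed between PVASCs and Ab-ASCs and B2m did not pass the test there, light and heavy chain levels were compared per length, as reads per kilobase of gene length and per library total (FPKM). B2m FPKM was 2.85 ± 0.223 times the summed heavy chain FPKM in Sub-ASCs, 3.31 ± 0.612 times in Ab-ASCs and 7.76 ± 0.241 times in PVASCs (SD, n = 3). The size of these multiples depends on the listed gene lengths and on heavy chain reads that can be lost to sequence shared between genes. All PVASC libraries (7.55 to 8.02) lay above all other libraries, and the Ab-ASC range (2.62 to 3.81) covered that of Sub-ASCs (2.70 to 3.11). Two-sided exact permutation tests of this ratio gave p = 0.1 for PVASCs against each other group and p = 0.4 for Ab-ASCs against Sub-ASCs (adjusted p = 0.12 and 0.4 over 6 tests). With 3 libraries against 3, an exact permutation test cannot give a p below 0.1. The ratio of H2-D1 to H2-K1 FPKM was 2.46 ± 0.0987 in Sub-ASCs, 1.70 ± 0.0664 in Ab-ASCs and 1.89 ± 0.0655 in PVASCs, with an exact permutation p of 0.1 and an adjusted p of 0.12 for each pair of groups.

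Tap1 and Tap2 encode both subunits of the peptide transporter. Tap1 was at 283, 274 and 307 CPM in Sub-ASCs, at 11.5, 11.3 and 11.0 CPM in Ab-ASCs and at 9.42, 10.4 and 10.8 CPM in PVASCs. Every Sub-ASC library was far above the others, and the highest PVASC library lay just below the lowest Ab-ASC library. The log2 fold change of Tap1 against Sub-ASCs was -4.82 (SE 0.07, adjusted p = 5.12e-14) in PVASCs and -4.67 (SE 0.07, adjusted p = 7.4e-14) in Ab-ASCs. Between PVASCs and Ab-ASCs it was -0.15 (SE 0.08, adjusted p = 0.12), which did not pass the test.

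Tap2 was at 149, 140 and 150 CPM in Sub-ASCs, at 19.4, 18.6 and 18.7 CPM in Ab-ASCs and at 13.2, 12.6 and 11.6 CPM in PVASCs. All 3 groups were apart. Its log2 fold change was -3.55 (SE 0.07, adjusted p = 2.47e-13) in PVASCs and -2.95 (SE 0.07, adjusted p = 1e-12) in Ab-ASCs against Sub-ASCs. It was -0.60 (SE 0.07, adjusted p = 1.65e-05) in PVASCs against Ab-ASCs.

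Tapbp encodes tapasin, which bridges the heavy chain and TAP. It was at 617, 617 and 659 CPM in Sub-ASCs, at 47.0, 45.2 and 47.4 CPM in Ab-ASCs and at 36.9, 31.5 and 32.1 CPM in PVASCs, again with all groups apart. Its log2 fold change was -4.23 (SE 0.07, adjusted p = 1.04e-13) in PVASCs and -3.76 (SE 0.07, adjusted p = 2.31e-13) in Ab-ASCs against Sub-ASCs, and -0.47 (SE 0.07, adjusted p = 8.84e-05) in PVASCs against Ab-ASCs. Some of these genes overlap others: Psmb9 and Tap1 share 212 exon bases on opposite strands, which is 5.79% of the exon bases of Psmb9 and 3.87% of those of Tap1, and Tapbp shares 149 bases, 4.11% of its exon bases, with Zbtb22 on the same strand. Larger overlaps lie with opposite-strand genes that had few reads: Tapbp shares 904 bases (24.9%) with Gm19412, which had 3 reads over the 9 libraries, Psmb8 shares 498 bases (14.7%) with Gm20496, which had 15, and Tap2 shares 533 bases (14.1%) with Gm15821, which had 56. Whether strand was used in counting is not given in the sources used here, so reads in the overlaps cannot be assigned to 1 gene.

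**Figure D2:**
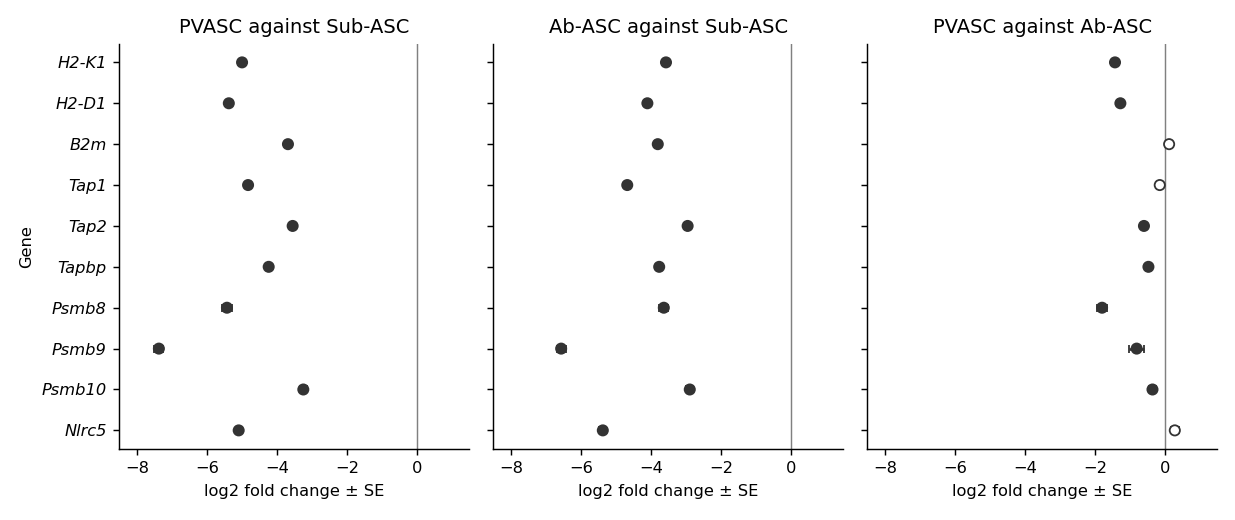
Log2 fold change of each of the 10 class I genes for the 3 pairs of groups, with the SE as error bar, often smaller than the point. Filled points passed the edgeR test (adjusted p under 0.05) and open points did not. All points lie between -7.37 and -2.89 in both comparisons with Sub-ASCs and between -1.80 and 0.28 for PVASCs against Ab-ASCs.

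The immunosubunits Psmb8 (β5i), Psmb9 (β1i) and Psmb10 (β2i) replace the constitutive subunits Psmb5, Psmb6 and Psmb7 and favour peptides that fit class I molecules. Psmb8 was at 181, 140 and 185 CPM in Sub-ASCs, at 14.4, 13.8 and 12.7 CPM in Ab-ASCs and at 3.45, 4.75 and 3.59 CPM in PVASCs. On the log2 scale, Psmb8 changed by -5.43 (SE 0.14, adjusted p = 4.17e-12) in PVASCs and -3.63 (SE 0.13, adjusted p = 6.14e-11) in Ab-ASCs against Sub-ASCs. At -1.80 (SE 0.15, adjusted p = 8.95e-07), Psmb8 had the lowest value of the 10 genes for PVASCs against Ab-ASCs.

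Psmb9 was at 137, 119 and 133 CPM in Sub-ASCs, at 1.34, 1.24 and 1.52 CPM in Ab-ASCs and at 0.550, 0.881 and 0.922 CPM in PVASCs. The Ab-ASC values rest on 25, 28 and 34 reads and the PVASC values on 18, 26 and 29 reads, and PVASC replicate 1 was the lowest library. Against Sub-ASCs, Psmb9 changed on the log2 scale by -7.37 (SE 0.13, adjusted p = 1.22e-13) in PVASCs and -6.56 (SE 0.12, adjusted p = 2.53e-13) in Ab-ASCs, the lowest of the 10 genes in both comparisons. It was -0.81 (SE 0.21, adjusted p = 0.00673) in PVASCs against Ab-ASCs. Psmb9 starts next to Tap1, which was at 3.53% of its Sub-ASC level in PVASCs, while Psmb9 was at 0.604%.

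Psmb10 was at 153, 130 and 158 CPM in Sub-ASCs, at 23.1, 17.3 and 19.3 CPM in Ab-ASCs and at 15.0, 15.8 and 15.7 CPM in PVASCs. All 3 groups were apart, although Ab-ASC replicate 2 was close to the PVASC libraries. Its log2 fold change was -3.24 (SE 0.11, adjusted p = 3.05e-11) in PVASCs and -2.89 (SE 0.10, adjusted p = 8.76e-11) in Ab-ASCs against Sub-ASCs, the smallest changes among the 10 genes. It was -0.36 (SE 0.11, adjusted p = 0.014) in PVASCs against Ab-ASCs.

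The constitutive subunits were higher in both groups than in Sub-ASCs. Over all genes tested, 34.7% were called higher in PVASCs and 37.0% in Ab-ASCs. Of 17 genes of the proteasome regulatory particle, 14 and 16 were also higher. Psmb5, Psmb6 and Psmb7 were higher than in Sub-ASCs by log2 fold changes of 0.46, 0.64 and 0.57 in PVASCs (adjusted p = 0.00209, 0.000209 and 0.00018) and of 1.03, 0.94 and 1.08 in Ab-ASCs (adjusted p = 2.34e-06, 6.82e-06 and 5.22e-07). For Psmb5, 54.1% of the 50-base stretches were shared with other genes, mainly Gm3375, so its level is uncertain, and so are the shares of Psmb8 against it. Each immunosubunit was set against its constitutive partner as a share of their summed FPKM. Psmb8 made up 45.8% ± 0.445 of Psmb8 and Psmb5 in Sub-ASCs, 3.26% ± 0.328 in Ab-ASCs and 1.41% ± 0.253 in PVASCs (SD, n = 3). Psmb9 made up 51.3% ± 2.01 of Psmb9 and Psmb6 in Sub-ASCs, 0.579% ± 0.107 in Ab-ASCs and 0.406% ± 0.111 in PVASCs. Psmb10 made up 82.8% ± 0.180 of Psmb10 and Psmb7 in Sub-ASCs, 23.6% ± 0.678 in Ab-ASCs and 25.6% ± 0.466 in PVASCs. Libraries of different groups did not overlap in any of the 9 pairs of groups and shares, and the two-sided exact permutation p was 0.1 for each (adjusted p = 0.1 over 9 tests), the smallest that 3 against 3 allows. On the FPKM scale, Psmb10 had the largest share of its pair in every group, but as a share of reads Psmb8 made up 71.97% ± 0.361 of its pair in Sub-ASCs and Psmb10 70.7% ± 0.263, so that this order depends on the gene lengths. The share of Psmb10 was slightly higher in PVASCs than in Ab-ASCs, opposite to the other pairs.

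**Figure D3:**
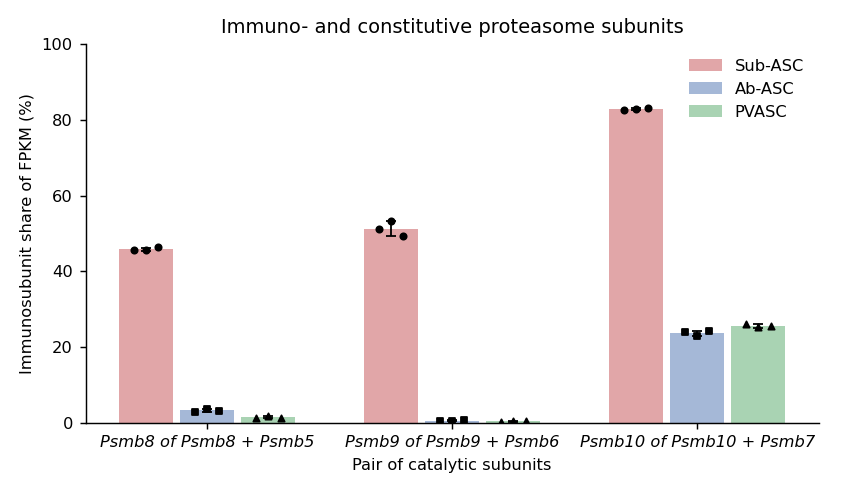
Share of each immunosubunit in the summed FPKM of the immunosubunit and its constitutive partner (percent), as mean with SD (bars) and single libraries (points), n = 3 per group. The mean share was 45.8% to 82.8% in Sub-ASCs, while in Ab-ASCs and PVASCs the mean was at most 3.26% for Psmb8 and Psmb9 and 23.6% to 25.6% for Psmb10.

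Nlrc5 encodes the transactivator that drives class I genes, including H2-K1, B2m, Tap1 and Psmb9. It was at 140, 152 and 133 CPM in Sub-ASCs, at 3.60, 3.07 and 3.61 CPM in Ab-ASCs and at 3.79, 4.27 and 4.42 CPM in PVASCs. The Sub-ASC libraries were again far above, but here the PVASC libraries all lay above the Ab-ASC libraries. Nlrc5 had a log2 fold change against Sub-ASCs of -5.09 (SE 0.09, adjusted p = 1.33e-13) in PVASCs and -5.37 (SE 0.09, adjusted p = 1.53e-13) in Ab-ASCs. Between PVASCs and Ab-ASCs it was 0.28 (SE 0.11, adjusted p = 0.052), just beyond the threshold, and the adjusted p was 0.0271 to 0.208 over the alternatives tried.

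In all, 7 of the 10 genes were lower in PVASCs than in Ab-ASCs, none was higher, and B2m, Tap1 and Nlrc5 did not pass the test, while 32.1% of all genes were called lower and 24.7% higher. The median on the log2 scale was -0.54 (-1.80 to 0.28), beside -0.06 over all genes. In this comparison, 3 of the 7, H2-K1, H2-D1 and Psmb8, were at or beyond -1 on the log2 scale, as were 5.31% of all genes. Libraries did not overlap for 9 genes, with 8 lower in PVASCs (35.6% of all genes) and Nlrc5 higher (28.3% of all genes). All 10 genes differed among the 3 groups, as did 84.6% of all genes (edgeR F-test).

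The order of the levels per length was largely shared by the groups. In Sub-ASCs, B2m was first at 6070 FPKM, followed by H2-D1 at 987, H2-K1 at 402, Tapbp at 187 and Psmb10 at 84.3 FPKM. Then came Psmb8 (60.3 FPKM) and Tap1 (51.5 FPKM), whose libraries overlapped, Tap2 (37.8 FPKM) and Psmb9 (34.7 FPKM), whose libraries also overlapped, and Nlrc5 at 16.3 FPKM. In Ab-ASCs, the same genes led, with B2m at 416, H2-D1 at 54.9, H2-K1 at 32.3, Tapbp at 13.2 and Psmb10 at 10.9 FPKM. Tap2 (4.67 FPKM) and Psmb8 (4.65 FPKM) were level, Tap1 was at 1.92 FPKM, and Nlrc5 (0.376 FPKM) and Psmb9 (0.349 FPKM) overlapped at the end. In PVASCs, B2m was at 527, H2-D1 at 26.6, H2-K1 at 14.1, Tapbp at 11.1 and Psmb10 at 9.93 FPKM. These were followed by Tap2 at 3.60 FPKM, Tap1 (2.03 FPKM) and Psmb8 (1.57 FPKM), whose libraries overlapped, Nlrc5 at 0.535 FPKM and Psmb9 at 0.234 FPKM. Psmb9 was above Nlrc5 only in Sub-ASCs.

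The likeness of 2 genes was measured as the root mean square difference of their log2 CPM over the 9 libraries, each centred on its own mean. H2-K1 and H2-D1 were each other's nearest gene among the 10, at 0.227. Tap2 and Psmb10 were nearest to each other at 0.177, B2m was nearest to Tapbp at 0.297, and Tap1 was nearest to Nlrc5 at 0.300. Psmb8 was nearest to H2-K1 at 0.252. Psmb9 stood farthest from the rest, with Nlrc5 as its nearest gene at 0.911. Outside the 10, the 5 genes nearest to their median profile were Irf1, Gpx3, Gstt1, Anpep and Gbp2, at 0.133, 0.134, 0.143, 0.167 and 0.169. Irf1 encodes an interferon-induced transcription factor and Gbp2 an interferon-induced GTPase, while Gpx3 encodes a secreted glutathione peroxidase, Gstt1 a glutathione transferase and Anpep an aminopeptidase of the cell surface (CD13). For instance, Irf1 was at 317 ± 15.6 CPM in Sub-ASCs, 22.1 ± 2.26 CPM in Ab-ASCs and 15.2 ± 0.181 CPM in PVASCs, and Gpx3 at 3445 ± 103, 249 ± 31.8 and 163 ± 1.74 CPM (SD, n = 3).

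Among the other class I heavy chain genes, 18 of 21 listed were in the table and 16 were tested. In PVASCs against Sub-ASCs, 13 were lower and 2 were higher (35.7% of all genes were called lower and 34.7% higher there), with a median log2 fold change of -4.87. In Ab-ASCs against Sub-ASCs, 14 were lower and 1, H2-M1, was higher (38.3% of all genes called lower and 37.0% higher), with a median of -4.92 that came to -4.47 with H2-T3 (0 reads in Ab-ASCs) and H2-M1 (0 reads in Sub-ASCs) set at 3 reads per library. The median in PVASCs was the same with H2-M1 set so. H2-Q6, of the Qa-2 group, was at 355, 336 and 349 CPM in Sub-ASCs, 5.26, 4.98 and 4.55 CPM in Ab-ASCs and 0.611, 1.15 and 0.541 CPM in PVASCs, although 35.0% of its 50-base stretches were shared with other genes. Its log2 fold change against Sub-ASCs was -8.83 (SE 0.14, adjusted p = 7.84e-14) in PVASCs and -6.14 (SE 0.12, adjusted p = 3.01e-13) in Ab-ASCs. H2-Q10 and H2-Q1 followed with fitted values of -7.98 (SE 0.23) and -7.87 (SE 0.37) in PVASCs. The H2-Q10 mean there was 0.0427 CPM, under the level of 3 reads in each PVASC library (0.0917 to 0.102 CPM). The size of its change is therefore uncertain. H2-Q1 was at 0.318 CPM in PVASCs. Of the 50-base stretches, 19.1% for H2-Q10 and 15.0% for H2-Q1 were shared with other genes. The genes not lower in PVASCs were 3 of the H2-M group, H2-M1, H2-M9 and H2-M5. H2-M1 had 0, 0 and 0 reads in Sub-ASCs, 4, 2 and 1 in Ab-ASCs and 65, 50 and 50 in PVASCs, so that PVASCs were at least 13.6-fold higher than 3 reads in each Sub-ASC library. The Ab-ASC mean of 0.116 CPM was under the level of those 3 reads, 0.129 CPM, so that no size can be given for that difference. H2-M9 had 1, 1 and 6 reads in Sub-ASCs, 5, 1 and 5 in Ab-ASCs and 33, 27 and 31 in PVASCs, with a log2 fold change of 3.13 (SE 0.52, adjusted p = 0.000163) in PVASCs against Sub-ASCs and of 0.68 (adjusted p = 0.426) in Ab-ASCs. H2-M5 had 18, 12 and 5 reads in Sub-ASCs, 0, 5 and 4 in Ab-ASCs and 15, 18 and 22 in PVASCs, with 0.32 (adjusted p = 0.577) in PVASCs against Sub-ASCs, -1.71 (adjusted p = 0.0397) in Ab-ASCs against Sub-ASCs, where the libraries overlapped, and 2.02 (adjusted p = 0.0181) in PVASCs against Ab-ASCs. Even so, H2-M1 and H2-M9 reached only 1.76 ± 0.206 and 0.970 ± 0.0488 CPM in PVASCs.

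Other proteins also pair with β2-microglobulin or share the class I fold. Of 7 such genes, 5 were tested, and 4 were lower than in Sub-ASCs and 1 was higher in both PVASCs (all genes, 35.7% lower and 34.7% higher) and Ab-ASCs (38.3% and 37.0%). Cd1d1, which presents lipids to NKT cells, was at 82.0 ± 3.09 CPM in Sub-ASCs, 12.9 ± 0.596 CPM in Ab-ASCs and 8.41 ± 0.323 CPM in PVASCs. Log2 fold changes in PVASCs and Ab-ASCs against Sub-ASCs were -3.29 and -2.66 for Cd1d1, -3.09 and -3.06 for Hfe, a regulator of iron uptake, -2.37 and -2.03 for Fcgrt, the neonatal Fc receptor, and -1.26 and -1.96 for Mr1, which presents vitamin B metabolites (adjusted p at most 5.47e-06). The gene that was higher was Procr, the endothelial protein C receptor, which has the class I fold but no light chain. It rose by 0.83 (SE 0.07, adjusted p = 2.44e-07) in PVASCs and 0.40 (SE 0.07, adjusted p = 0.000179) in Ab-ASCs on the log2 scale.

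Genes for peptide trimming and loading went in both directions. Of 13 tested, 6 were lower and 4 higher in PVASCs, and 4 were lower and 3 higher in Ab-ASCs, each against Sub-ASCs, with medians of -0.06 and -0.02. Over all genes tested, 35.7% were lower and 34.7% higher in PVASCs, and 38.3% and 37.0% in Ab-ASCs. Erap1, which trims peptides in the endoplasmic reticulum, had log2 fold changes of -3.11 (SE 0.17) and -3.32 (SE 0.18), and Tapbpl, which encodes the peptide editor TAPBPR, of -2.85 and -2.46, both SE 0.08 (adjusted p at most 5.71e-09). Of 4 general chaperones of the endoplasmic reticulum, 3 were lower in PVASCs than in Sub-ASCs and none was called in Ab-ASCs. Calr was at -0.60 in PVASCs (adjusted p = 1.06e-06) and -0.02 in Ab-ASCs (adjusted p = 0.757), Pdia3 at -0.28 (adjusted p = 8.09e-05) and -0.08 (adjusted p = 0.111), Hspa5 at -0.23 (adjusted p = 0.00029) and 0.06 (adjusted p = 0.205), and Canx at 0.12 (adjusted p = 0.154) and 0.05 (adjusted p = 0.583).

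The proteasome outside the immunosubunits was not lower as a whole. Of 11 core subunits shared by both kinds of proteasome, 3 were higher and 1 lower in PVASCs than in Sub-ASCs, while 10 were higher and none lower in Ab-ASCs, with medians of 0.11 and 0.54. The shares of all genes called higher were 34.7% in PVASCs and 37.0% in Ab-ASCs, and those called lower 35.7% and 38.3%, so that the share of core subunits higher in PVASCs was not above that of all genes. Of 17 genes of the regulatory particle, which unfolds ubiquitinated proteins, 14 were higher in PVASCs and 16 in Ab-ASCs, and none was lower, with medians of 0.33 and 0.70. An example is Psmc4, at 80.9 ± 2.68 CPM in Sub-ASCs, 169 ± 21.3 CPM in Ab-ASCs and 113 ± 2.29 CPM in PVASCs. Among 8 activators and assembly factors, 4 were higher and 2 lower in PVASCs, and 5 were higher and 3 lower in Ab-ASCs. The lower ones included Psme1 and Psme2, the subunits of the PA28 activator, which is itself induced by interferon-γ. Psme1 was at -2.37 (SE 0.09, adjusted p = 7.99e-11) and -2.22 (SE 0.09, adjusted p = 1.52e-10), and Psme2 at -1.92 (SE 0.13, adjusted p = 4e-08) and -1.90 (SE 0.13, adjusted p = 5.03e-08) on the log2 scale in PVASCs and Ab-ASCs.

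**Figure D4:**
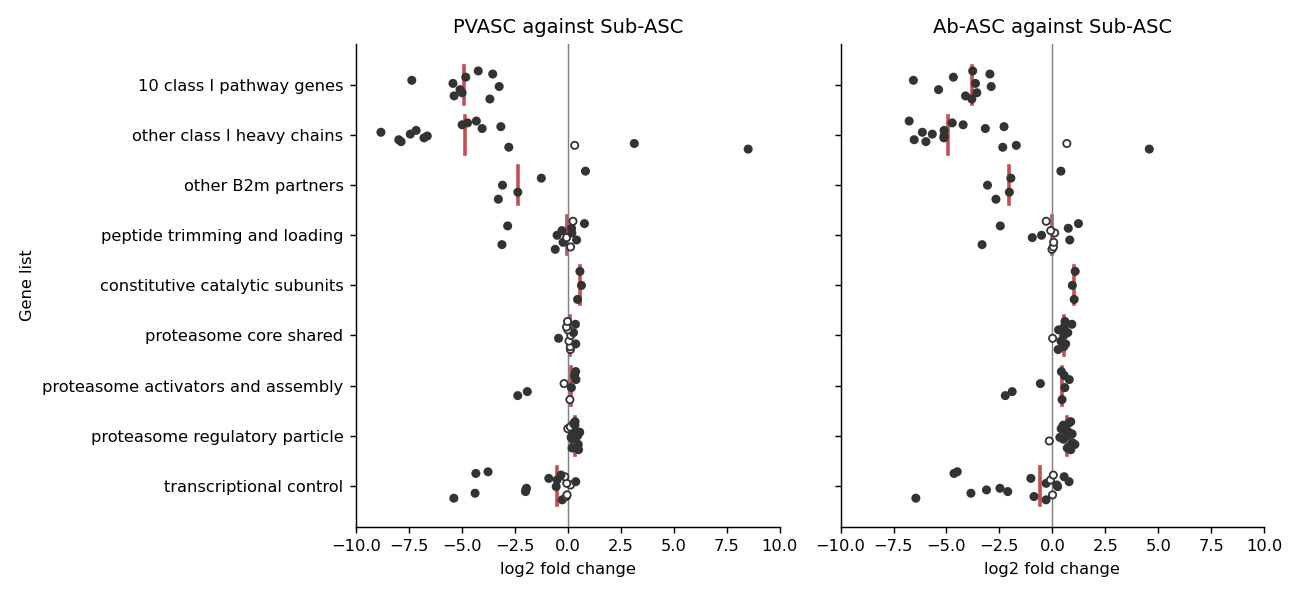
Log2 fold change of every tested gene in the 10 class I genes and 8 related lists against Sub-ASCs, in PVASCs (left) and Ab-ASCs (right). Each point is a gene, filled where it passed the edgeR test, and red lines are list medians, at -4.91 and -3.78 for the 10 genes and 0.33 and 0.70 for the proteasome regulatory particle. The points far to the right are H2-M1, which had 0 reads in Sub-ASCs, so that its fitted value is not a measured fold.

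Of 18 genes for transcriptional control of the route, 12 were lower and 1 was higher in PVASCs, and 11 were lower and 4 higher in Ab-ASCs, each against Sub-ASCs, with medians of -0.53 and -0.58, where 35.7% of all genes were lower and 34.7% higher in PVASCs and 38.3% and 37.0% in Ab-ASCs. Irf1 was at 319, 301 and 331 CPM in Sub-ASCs, at 24.2, 19.7 and 22.5 CPM in Ab-ASCs and at 15.3, 15.0 and 15.3 CPM in PVASCs. Log2 fold changes in PVASCs and Ab-ASCs were -3.77 and -4.49 for Stat2, -4.38 and -3.84 for Irf1 and -5.38 and -6.45 for Ciita, the transactivator of MHC class II genes (adjusted p at most 7.2e-11). Ciita had 251, 248 and 250 reads in Sub-ASCs, but 1, 3 and 3 in Ab-ASCs and 8, 8 and 6 in PVASCs. Rfx5, which binds the X box beside the X2 core, was at -0.90 (SE 0.08, adjusted p = 6.86e-07) and -1.02 (SE 0.09, adjusted p = 3.15e-07).

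Of 11 interferon genes listed, only Ifng had enough reads for testing. It had 64, 49 and 56 reads in Sub-ASCs, 0 in each Ab-ASC library, and 0, 17 and 0 reads in PVASCs. Its mean level in Sub-ASCs was 2.27 ± 0.427 CPM (SD, n = 3). Set against 3 reads per library in Ab-ASCs, this was at least 14.1-fold higher. Ifng is chiefly made by T cells and NK cells. Of 12 haematopoietic markers, which summed to 271 to 275 CPM in Sub-ASCs, 315 to 412 CPM in Ab-ASCs and 302 to 312 CPM in PVASCs, 10 were tested. Lyz2, the main part of the sum, was at 163 ± 2.44, 271 ± 41.2 and 249 ± 3.03 CPM. Ptprc (CD45) was at 8.94 ± 1.01 CPM in Sub-ASCs, 1.41 ± 0.249 CPM in Ab-ASCs and 2.81 ± 0.476 CPM in PVASCs. The T cell marker Cd3e had 7 reads in each Sub-ASC library and 0 in the other 6 libraries, and the cytotoxic cell marker Nkg7 had 20, 13 and 13 reads in Sub-ASCs and at most 2 in any other library. Of the 10 tested markers, 8 were lower in both groups than in Sub-ASCs (35.7% of all genes in PVASCs and 38.3% in Ab-ASCs), whereas Lyz2, Csf1r and the sum of the list were higher. Between PVASCs and Ab-ASCs, Ptprc was higher in PVASCs by a log2 fold change of 0.97 (SE 0.20, adjusted p = 0.00136). It was the only 1 of the 10 that rose by the edgeR test, while 5 fell and 4 were not called. Those that fell were Fcgr1 (-1.09), Itgax (-1.05), Cd68 (-0.99), Csf1r (-0.58) and Itgam (-0.56), with adjusted p at most 0.0497. Libraries overlapped for Itgax and Itgam. In this comparison, 24.7% of all genes were called higher and 32.1% lower. The part of haematopoietic cells in the result was not tested.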

How the data were processed

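Bulk mRNA libraries of Sub-ASCs, Ab-ASCs and PVASCs (3 each) were analysed. The authors deposited raw read counts per gene and library, with gene lengths and positions. Per the submitters' processing notes, CASAVA 1.8, Bowtie 0.12.2 and featureCounts 1.5.0-p3 were used and the builds mm8 and mm10 are named. The listed positions matched GENCODE M21 (GRCm38) for 98.0% of genes and for 7 of the 10 class I genes. The annotation release and strand setting are not given in the sources used here. Every per-sample column was used and no row lacked a gene.

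Tests used edgeR 4.0.16 (R 4.3.3, limma 3.58.1) on the counts, with filterByExpr, TMM normalization, 1 quasi-likelihood fit of all 9 libraries without covariates, and Benjamini-Hochberg adjustment over 16526 genes at 0.05. Library size was the reads on tested genes. SE was the log2 fold change divided by the root of F. FPKM was calculated from counts, listed length and library total. Errors of means are SDs over 3 libraries. Ratios and shares were compared by two-sided exact permutation tests. A group at 0 was set at 3 reads per library. Such floors cover counting error only.

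The 10 genes and the gene lists were chosen with earlier results of these data known. From each list, up to 4 genes with the largest called change against Sub-ASCs were named, plus partner genes fixed with the lists. H2-M9, H2-T3, H2-M5, Procr, Irf2, Irf8, Irf9, Hspa5, Ly6a, Thy1, Itgb1, Tek, Csf1r, Lyz2, Ptprc and Cd3e were named after their values had been seen where outside this rule. 1 gene of the list for transcriptional control is not reported here by name. Alternatives were DESeq2 1.42.0, RLE size factors, no filter, a minimum of 10 reads in each library, a fit of the compared groups alone, the replicate number as a block, a fold limit of 1 on the log2 scale in either direction, leaving out each library and, for the heavy chain sum, H2-K1 and H2-D1 only. Sequences were read from RefSeq tables with Python 3.11.15 and pandas 2.3.3.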

Additional observations from a re-analysis of the deposited data

How the results depend on the processing

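Deviations from the group means of same-numbered libraries correlated at 0.0226 to 0.0309 for PVASCs and Sub-ASCs. They correlated at -0.0514 to 0.0950 for Ab-ASCs and Sub-ASCs and at -0.0259 to -0.00871 for PVASCs and Ab-ASCs. Between libraries of unlike number the values were -0.0247 to -0.00379, -0.120 to 0.107 and -0.0186 to 0.0384 in the same order. The labels do not say whether equal numbers mark 1 animal or batch. With 3 libraries per group, these correlations cannot decide it. With a block for the replicate number, 10, 10 and 7 of the 10 class I genes were called in the 3 pairs of groups, and calls over all genes went from 11628, 12442 and 9396 to 11458, 12302 and 9183. All 10 genes were called lower than in Sub-ASCs under every alternative. For PVASCs against Ab-ASCs, 7 to 8 genes were called when a library was left out, but 3 when a log2 change of 1 or more in either direction was required, which by construction excluded Tap2 (-0.60), Tapbp (-0.47), Psmb9 (-0.81) and Psmb10 (-0.36). Nlrc5 passed the test there with RLE size factors (0.30, adjusted p = 0.039), with at least 10 reads in every library (0.32, adjusted p = 0.0271), with only the groups compared (0.36, adjusted p = 0.0434) and without PVASC replicate 1 (0.34, adjusted p = 0.0363), and B2m without Ab-ASC replicate 2 (0.18, adjusted p = 0.033). The cause was not tested. Psmb9 and Psmb10 kept the call with adjusted p up to 0.0436 and 0.0484 where no fold limit was set. No direction reversed under any alternative. At 18 to 34 reads in Ab-ASC and PVASC libraries, depth limits the comparison of Psmb9 between these groups, where its SE was 0.21 on the log2 scale.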

Other observations

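Genes of interferon signalling differed in direction between PVASCs and Ab-ASCs. Stat2 was higher in PVASCs than in Ab-ASCs by a log2 fold change of 0.72 (SE 0.06, adjusted p = 5.98e-07) by the edgeR test, whereas Irf1 was lower at -0.54 (SE 0.08, adjusted p = 9.83e-05), and Irf2 was not called at 0.11 (SE 0.07, adjusted p = 0.203). Irf9, which partners STAT2, was higher at 0.52 (SE 0.09, adjusted p = 0.000336), and Irf8 at 1.12 (SE 0.14, adjusted p = 3.97e-05). Irf2, Irf9 and Irf8 were named after their values had been seen. Each of the 5 genes was lower in both groups than in Sub-ASCs.

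Ab-ASC replicate 1 was lower than the other Ab-ASC libraries for some genes of the related lists, and these were picked after their values had been seen. Erap1 was at 13.4 CPM there and at 27.7 and 20.8 CPM in the others, Lnpep, which trims peptides in endosomes, at 52.0 against 101 and 94.4 CPM, and Mr1 at 11.1 against 17.0 and 18.8 CPM. Whole lists were higher there. The constitutive catalytic subunits summed to 444 against 350 and 359 CPM, and the shared proteasome core to 2096 against 1712 and 1784 CPM. The haematopoietic markers summed to 412 against 315 and 340 CPM. Ab-ASC replicate 1 also had the fewest reads and the lowest TMM factor, 0.908. Among the 10 class I genes, this library was the lowest of its group for B2m, at 335 CPM beside 418 and 394 CPM, and the highest for H2-K1, H2-D1, Tap1, Tap2, Psmb8 and Psmb10.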
